A study of Homo sapiens with 7 samples.

Results

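A set of 9 genes that restrain Wnt signalling and are described as silenced in colon cancer were followed across chromatin profiles of HCT116 cells, a human colorectal carcinoma line. The 9 genes, taken by name from the GENCODE annotation of hg19 among 20144 protein-coding genes, were the secreted frizzled-related proteins SFRP1, SFRP2, SFRP4 and SFRP5, the Wnt inhibitory factor WIF1, the Dickkopf proteins DKK1, DKK2 and DKK3, and the transcription factor SOX17. Every interval that overlapped one of these genes or the 10 kb on either side of it was taken, which gave 71 of the 240889 intervals in the 6 lists.

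The cells had been grown to 200000 per well, crosslinked, and sheared with PIXUL, an ultrasound instrument that sonicates all wells of a 96-well plate. Chromatin was then immunoprecipitated from 1 well per antibody and sequenced (ChIP-seq). The lists covered H3K4me3 and H3K9Ac (marks of active promoters), H3K4me1 (enhancers and promoter flanks), H3K27me3 (Polycomb repression), H3K36me3 (transcribed gene bodies) and the insulator-binding protein CTCF, while a library for H3K27Ac was not analysed here. Cells of a single line, with no treatment named in the labels, were used throughout and each antibody had 1 library, so no value below has a replicate error and no test could be made.

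Each interval carried a fold enrichment over background and a q-value from the peak caller. An interval was called past the limits by the criteria of the study's methods, namely q below 1e-03 with fold above 2 for H3K4me1 and H3K27me3, and q below 1e-10 with fold above 5 for the other marks. CTCF, which the methods do not name, was placed with the latter. These limits kept 12749 of 16112 H3K4me3 intervals, 12720 of 34164 for H3K9Ac, 32292 of 50521 for H3K4me1 and 24536 of 44812 for CTCF, but only 2.81% of the 55270 H3K27me3 intervals and 0.225% of the 40010 H3K36me3 intervals. The interval names inside the H3K27me3 list, unlike those of the other 5, did not carry the name of the cell line, so its identity rests on its label. The lists give no read depth, and the absence of an interval says only that none was called. H3K4me3 past the limits lay within 1 kb of the transcription start site (TSS) of 6 of 6 epithelial markers, EPCAM and CDH1 among them, and of 1 of 7 markers of leukocytes, endothelium, fibroblasts and hepatocytes (COL1A1, fold 9.21).

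Wnt ligands bind Frizzled receptors together with the co-receptors LRP5 and LRP6 and stabilise β-catenin, which drives growth of the intestinal epithelium with TCF and LEF factors. SFRPs and WIF1 bind the ligands outside the cell, DKK1 and DKK2 bind LRP5 and LRP6, DKK3 is a divergent member of the Dickkopf family, and SOX17 restrains β-catenin and TCF activity in the nucleus. In colorectal tumours the CpG-rich promoters of several of these genes are known to gain DNA methylation. Neither DNA methylation nor RNA was measured in these lists.

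DKK1 was the exception among the 9 genes, and the marks at its promoter go against the description as silenced, although its RNA was not measured. It alone had H3K4me3 and H3K9Ac past the limits within 1 kb of its TSS, where such intervals lay at 59.2% and 58.5% of all protein-coding genes, respectively. H3K4me1 was past the limits at the TSS of DKK1 and SFRP4, against 49.1% of all genes. CTCF was past the limits at the same 2 genes, against 13.6%. H3K27me3 and H3K36me3 reached the limits at the TSS of none of the 9 genes, but they did so at only 1.22% and 0.298% of all genes. None of the 3 active marks (H3K4me3, H3K9Ac and H3K4me1) was past the limits at the TSS of SFRP1, SFRP2, SFRP5, WIF1, DKK2, DKK3 and SOX17, which is 7 of 9, where 35.7% of all genes had none.

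**Figure D1:**
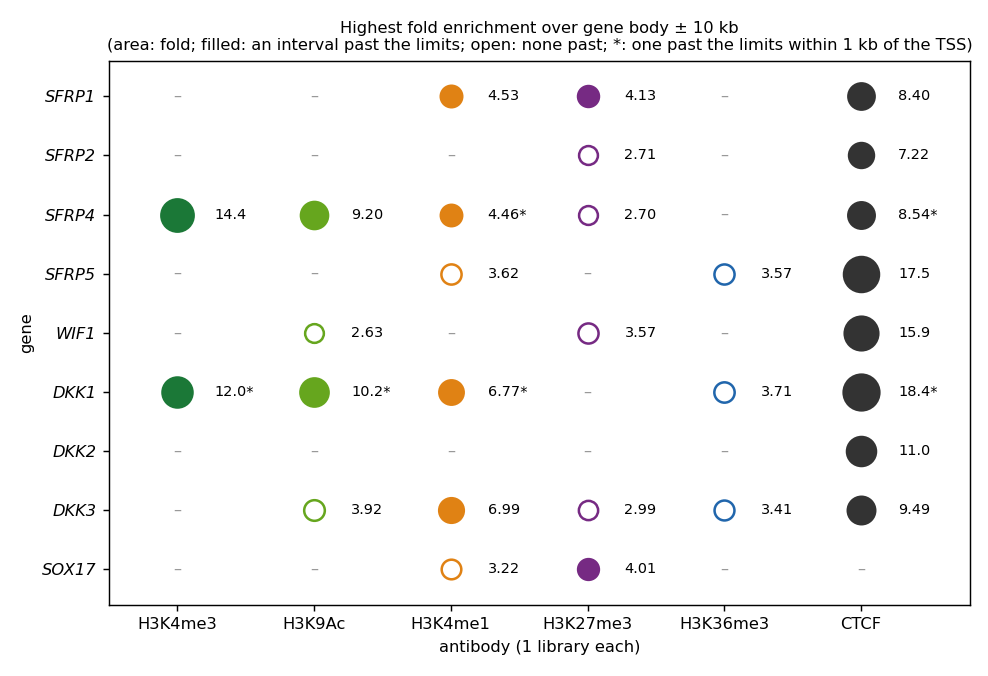
Highest fold enrichment of any interval over each gene body and 10 kb around it, by gene (vertical axis) and antibody (horizontal axis, 1 library each). Circle area grows with fold, filled circles have an interval past the limits, open circles have none, dashes mark no interval, and an asterisk marks an interval past the limits within 1 kb of the TSS, which need not be the one with the highest fold. Asterisks stand only at DKK1 (4 marks) and SFRP4 (H3K4me1 and CTCF), and the H3K4me3 circle of SFRP4 (14.4) lies over the TSS of its neighbour EPDR1.

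Within 1 kb of the TSS, the base composition of the promoters did not separate DKK1 from the others. A promoter was called CpG-rich when the 1 kb on each side of its TSS had a GC content of at least 50% and a ratio of observed to expected CpG of at least 0.6, limits that 50.8% of all genes met. Of the 9 genes, 8 met them. The GC content and the CpG ratio were 63.5% and 0.83 for SFRP1, 61.9% and 0.73 for SFRP2, 56.3% and 0.67 for SFRP4, and 65.0% and 0.66 for SFRP5. They were 55.7% and 0.71 for WIF1, 56.8% and 0.69 for DKK1, 67.5% and 0.69 for DKK3, and 56.5% and 0.87 for SOX17. DKK2, at 56.2% and 0.59, fell just under the limit on the ratio, although its ratio was 0.66 within 500 bp. The medians over all genes were 55.92% and 0.63. DKK1 therefore sat inside the range of the unmarked members for both measures within 1 kb. Within 500 bp its GC content and ratio were 59.1% and 0.67, lower than in every other member except DKK2 (53.7% and 0.66).

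Among all CpG-rich promoters, 84.5% had H3K4me3 past the limits, as did 33.0% of the remaining promoters. Of the 8 CpG-rich members, 1 did, and it was DKK1. For H3K9Ac the share was 83.2% and the count again 1 of 8. CTCF was past the limits at 18.5% of CpG-rich promoters and at 2 of these 8. H3K27me3 was past the limits at 1.07% of CpG-rich promoters and at 0 of the 8, a background too low for a count over so few genes to be read.

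**Figure D2:**
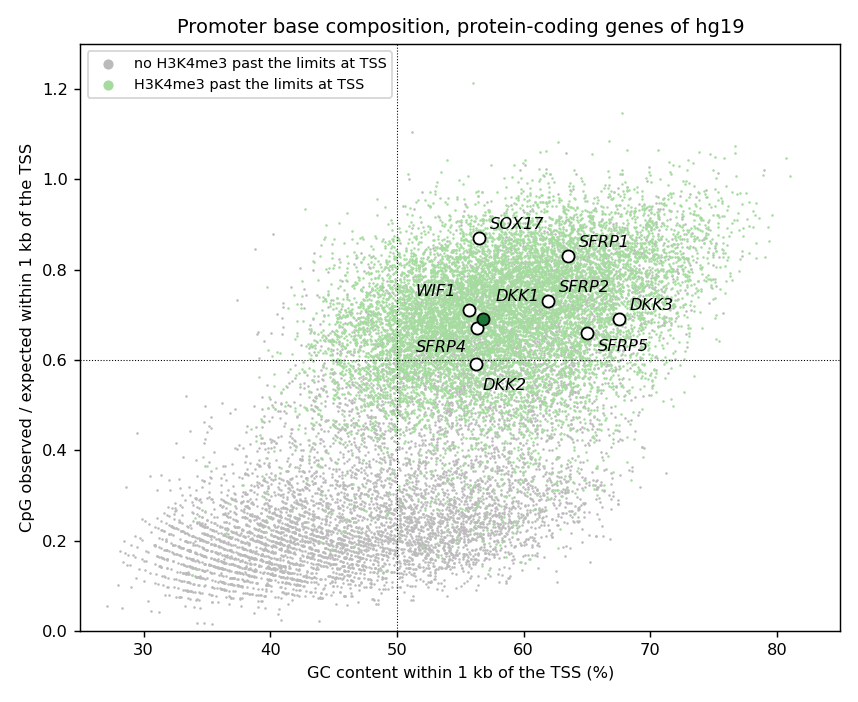
GC content (horizontal axis, percent) and the ratio of observed to expected CpG (vertical axis) within 1 kb of the TSS of each protein-coding gene, in green where H3K4me3 was past the limits at the TSS and in grey where it was not. The filled circle is DKK1, the open circles are the other 8 genes, and dotted lines mark 50% and 0.6. All 9 genes lie in or at the edge of the upper right field, where 84.5% of promoters were marked.

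The 200 bases upstream of the TSS are shown for DKK1, the marked promoter, and for SFRP2, SFRP5 and WIF1, unmarked CpG-rich promoters whose TSS is the outermost annotated one. Each is written 5′ to 3′ on the strand of the gene from hg19, with every CpG in capitals. The positions are chr10:54073841-54074040 on the plus strand for DKK1, and on the minus strand chr4:154710236-154710435 for SFRP2, chr10:99531757-99531956 for SFRP5 and chr12:65515086-65515285 for WIF1.
DKK1: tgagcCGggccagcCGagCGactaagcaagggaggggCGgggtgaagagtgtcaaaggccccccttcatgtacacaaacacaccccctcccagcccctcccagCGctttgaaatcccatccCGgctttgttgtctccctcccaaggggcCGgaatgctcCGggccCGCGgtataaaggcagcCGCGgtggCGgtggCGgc
SFRP2: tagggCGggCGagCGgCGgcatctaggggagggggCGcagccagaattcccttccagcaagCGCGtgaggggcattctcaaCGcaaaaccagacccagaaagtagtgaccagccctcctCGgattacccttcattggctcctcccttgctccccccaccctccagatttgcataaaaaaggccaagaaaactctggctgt
SFRP5: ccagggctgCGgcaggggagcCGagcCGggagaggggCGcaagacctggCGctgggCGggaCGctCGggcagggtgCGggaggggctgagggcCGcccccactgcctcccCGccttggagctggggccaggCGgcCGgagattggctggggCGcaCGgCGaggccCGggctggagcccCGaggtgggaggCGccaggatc
WIF1: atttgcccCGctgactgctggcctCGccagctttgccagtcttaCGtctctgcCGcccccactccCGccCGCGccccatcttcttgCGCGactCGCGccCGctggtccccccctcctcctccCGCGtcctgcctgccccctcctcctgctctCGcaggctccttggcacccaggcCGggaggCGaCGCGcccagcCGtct
These stretches held 14 CpGs for DKK1, 9 for SFRP2, 19 for SFRP5 and 20 for WIF1. The marked promoter thus had more CpGs than SFRP2 and fewer than SFRP5 and WIF1. The exact letters CTTTGAT, a form of the TCF and LEF motif, were searched on both strands from 250 bases before to 50 after the TSS. They were found in 0 of the 9 promoters and in 1.96% of all coding promoters. A count of 0 is near what this background gives. Other forms of the motif were not searched, so the count does not say whether a promoter holds a TCF or LEF site.

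DKK1 (ENSG00000107984, chr10:54074041-54077802, plus strand) is a short gene of 4 exons whose product closes the LRP5 and LRP6 co-receptors to Wnt. Its H3K4me3 interval ran from 1604 bp upstream to 2453 bp downstream of the TSS, over all 4 exons, with a fold of 12.0. The H3K9Ac interval was wider, from 2919 bp upstream to 7165 bp downstream, past the 3′ end of the gene, with a fold of 10.2. H3K4me1 lay on both flanks, with a fold of 4.38 from 2586 bp upstream to 166 bp downstream, 6.77 from 1423 to 7550 bp downstream, and 4.34 in a small interval that began 5887 bp upstream. The H3K4me3, H3K9Ac and promoter H3K4me1 intervals, and the CTCF interval over the TSS, also covered an annotated TSS of the antisense RNA PRKG1-AS1. A ChIP interval cannot be assigned to 1 strand.

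Set against the genes that were marked at their TSS, the H3K4me3 and H3K9Ac intervals of DKK1 were wide and their folds below the median. The H3K4me3 fold of 12.0 lay under the median of 22.5 over 11916 marked genes, of which 9.18% had a lower fold, whereas its width of 4058 bp exceeded that of 96.8% of them (median 2061 bp). For H3K9Ac, the fold of 10.2 was set against a median of 13.1, with 22.3% of marked genes lower, and the width of 10085 bp against a median of 3112 bp, with 96.5% narrower. The H3K4me1 fold at the TSS (4.38) was close to the median of 4.69, with 36.6% of marked genes lower, and its width of 2753 bp was close to the median of 2407 bp, with 58.4% narrower.

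CTCF showed the reverse order of height at DKK1. An interval with a fold of 18.4 spanned the TSS, from 294 bp upstream to 732 bp downstream, and 78.2% of the 2733 genes with CTCF at the TSS had a lower fold (median 12.4). Its width of 1027 bp was near their median of 990 bp. A further CTCF interval with a fold of 10.3 lay 6395 to 5541 bp upstream and met the small H3K4me1 interval there, along with an H3K9Ac interval (fold 3.13) that did not reach the limits. H3K4me3 and CTCF were both past the limits at the TSS of 11.4% of all genes and, of the 9 genes, at DKK1 alone.

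H3K36me3 at DKK1 ran from 1678 to 4032 bp downstream of the TSS, over exons 3 and 4, with a fold of 3.71, under the limit of 5. No H3K27me3 interval was listed in the DKK1 window, and the nearest lay 144 kb from the TSS.

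**Figure D3:**
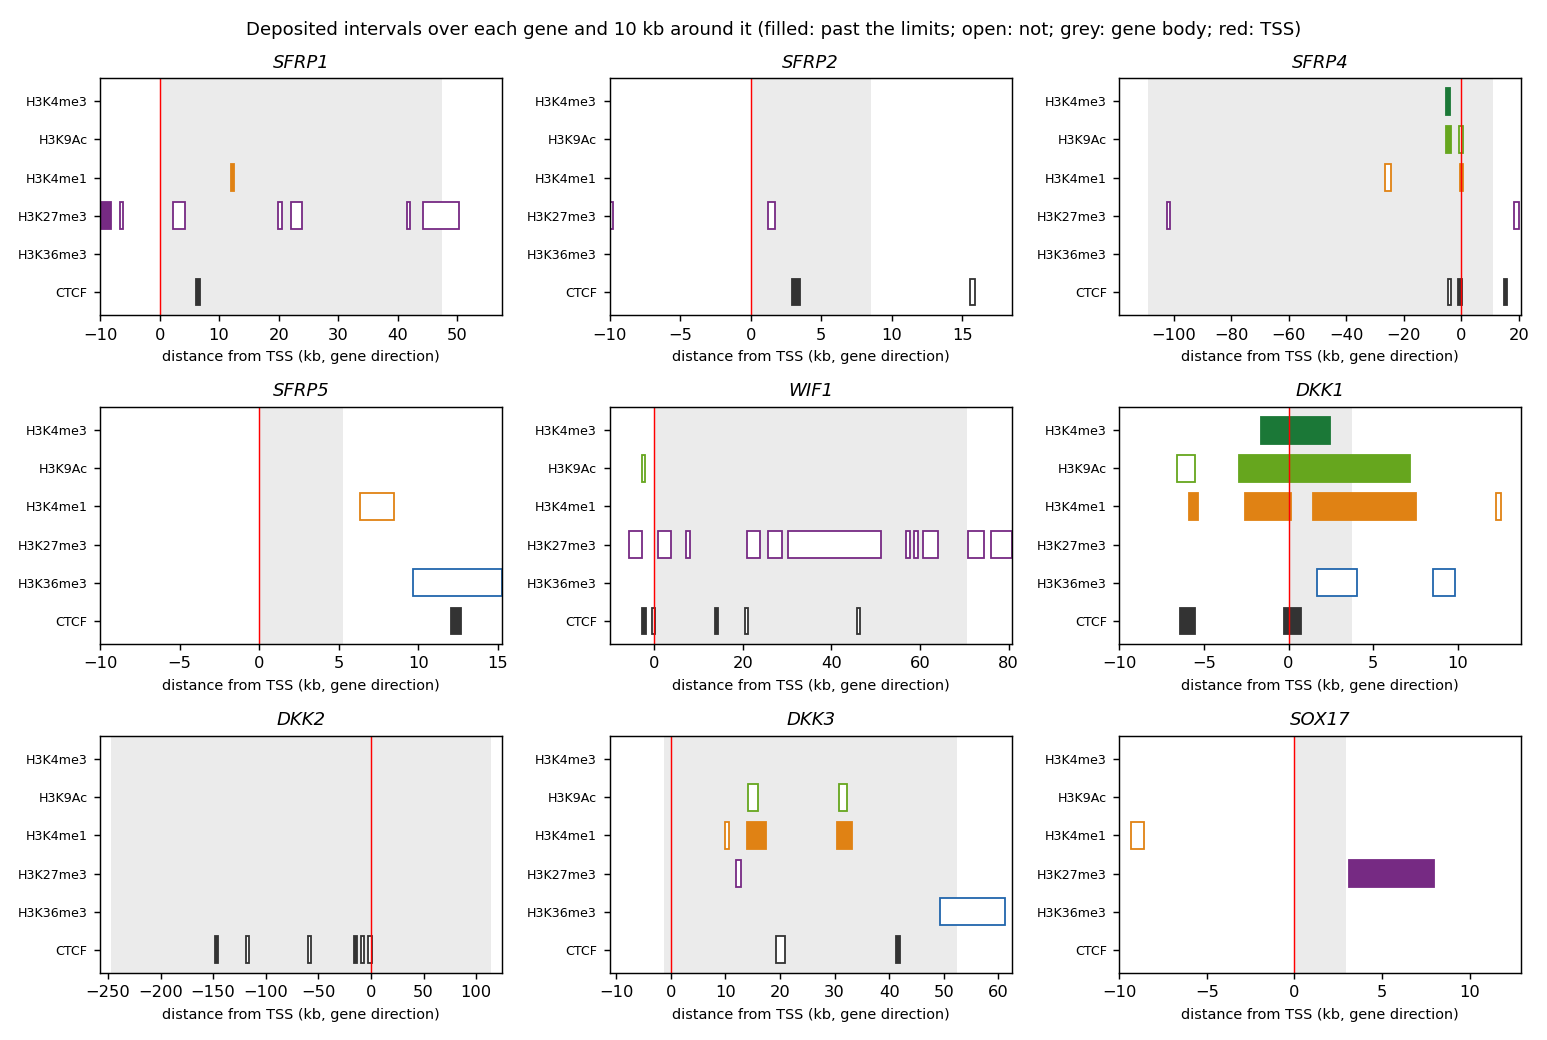
Intervals over each of the 9 genes and 10 kb around it, by distance from the TSS in kb in the direction of the gene (horizontal axis, scaled to each gene) and by antibody (vertical axis). Filled boxes are past the limits, open boxes are not, the grey band is the gene body and the red line the TSS; narrow intervals are drawn at a minimum width. Active marks sit on the red line at DKK1, H3K27me3 boxes are spread along SFRP1 and WIF1, and DKK2 shows CTCF only.

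SFRP4 (ENSG00000106483, chr7:37945534-38065297, minus strand) was the only other gene with a mark past the limits at its TSS. Its H3K4me1 interval ran from 334 bp upstream to 481 bp downstream with a fold of 4.46, and a CTCF interval with a fold of 7.50 lay 749 to 177 bp upstream. H3K9Ac was listed over the TSS with a fold of 3.19 and did not reach the limits, and no H3K4me3 interval touched the TSS. The H3K4me3 (14.4) and H3K9Ac (9.20) intervals that gave this gene its highest folds lay 5298 to 3739 bp and 5335 to 3550 bp upstream. Both covered the TSS of EPDR1, a neighbouring gene that overlaps the longest annotated form of SFRP4, and so they count as SFRP4 intervals by position only. A CTCF interval with a fold of 8.54 lay 15041 to 15842 bp downstream of the TSS. H3K27me3 was listed at 2 places in this 140 kb window, at folds of 2.67 and 2.70, neither past the limits.

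The other SFRP genes had bare promoters. SFRP1 (ENSG00000104332, chr8:41119481-41166992, minus strand), SFRP2 (ENSG00000145423, chr4:154701743-154710235, minus strand) and SFRP5 (ENSG00000120057, chr10:99526508-99531756, minus strand) had no interval of any of the 6 lists within 1 kb of the TSS. The nearest H3K4me3 intervals lay 181 kb, 302 kb and 33.7 kb away, respectively. SFRP1 carried 1 small H3K4me1 interval past the limits, 12029 to 12456 bp downstream in intron 2 with a fold of 4.53, and 1 CTCF interval with a fold of 8.40 that began 6154 bp downstream. SFRP2 had CTCF with a fold of 7.22 over exon 2, from 2912 to 3522 bp downstream. SFRP5 had CTCF with a fold of 17.5 that began 12069 bp downstream, inside the neighbouring gene ZFYVE27. Next to SFRP5, a broad H3K36me3 interval of 22932 bp (fold 3.57) belonged by position to ZFYVE27, and an H3K4me1 interval (fold 3.62) that began 6329 bp downstream did not reach the limits.

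H3K27me3 was listed over 6 of the 9 windows, those of SFRP1, SFRP2, SFRP4, WIF1, DKK3 and SOX17, where 30.0% of all genes had such an interval. Of the 24 H3K27me3 intervals, 2 were past the limits, against 2.81% of all listed H3K27me3 intervals. They lay at SFRP1 and SOX17, 1 each, and so at 2 of the 9 genes, against 3.94% of all genes. The pass rested on small margins. The SFRP1 interval had a fold of 4.13 and a −log10 q of 3.53, and the SOX17 interval a fold of 4.01 and a −log10 q of 3.30, just inside the limit of 3. The highest of the others was at WIF1, with a fold of 3.57 and a −log10 q of 2.68, just outside it.

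The position of the H3K27me3 intervals differed between the genes. At SFRP1 there were 7, with folds from 2.60 to 4.13, which together covered 13.4 kb of the 67.5 kb window. The one past the limits was 14301 bp long, began 8108 bp upstream of the TSS and extended out of the window. The nearest to the TSS began 2216 bp inside the gene with a fold of 3.42. At SOX17 (ENSG00000164736, chr8:55370495-55373452, plus strand) the single interval of 4.88 kb lay 3102 to 7985 bp downstream of the TSS, beyond the 3′ end of the gene. SFRP2 had intervals with folds of 2.71 and 2.70, the nearer 1248 bp inside the gene. Of the 6 genes with a listed interval, only WIF1 had one within 1 kb of the TSS, and that by its edge, since it began 985 bp from the TSS. Among the 6040 genes of the genome with an interval in their window, 32.1% had one within 1 kb, a share near which a count of 1 of 6 lies.

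WIF1 (ENSG00000156076, chr12:65444406-65515085, minus strand) had the most H3K27me3 intervals of the 9 genes. There were 11 with folds from 2.77 to 3.57, set against a median of 2.93 over all listed H3K27me3 intervals, the longest 20964 bp from 30247 to 51210 bp downstream of the TSS. They covered 45.6 kb or 50.3% of the window, a share that 3.76% of all genes reached, and none was past the limits. On either side of the TSS, intervals with folds of 3.31 and 2.94 ended 2679 bp upstream and began 985 bp downstream. CTCF was listed 5 times at WIF1. An interval with a fold of 15.9 lay 2828 to 1910 bp upstream, and one with a fold of 6.81 began 13909 bp downstream in intron 2. The interval over the TSS itself, from 558 bp upstream to 147 bp downstream, had a fold of 6.50 and a −log10 q of 8.95 and so missed the limit of 10. The only active mark listed was H3K9Ac with a fold of 2.63, upstream beneath the strong CTCF interval and not past the limits.

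**Figure D4:**
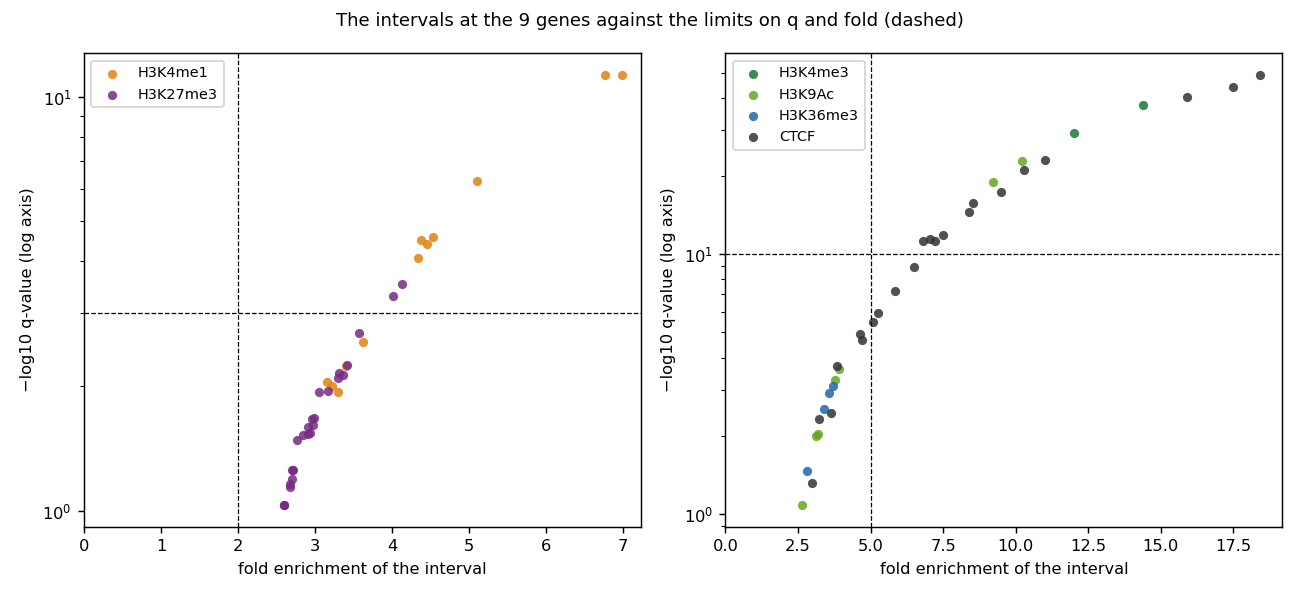
Fold enrichment (horizontal axis) and −log10 q-value (vertical axis, log scale) of each of the 71 intervals at the 9 genes, coloured by antibody, with H3K4me1 and H3K27me3 on the left and the other lists on the right. Dashed lines are the limits on fold and q, and an interval is past the limits in the upper right field. Of 24 H3K27me3 intervals 2 lie just above the line on the left, and all 4 H3K36me3 intervals lie under it on the right.

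The active marks past the limits outside DKK1 and SFRP4 lay within gene bodies. DKK3 (ENSG00000050165, chr11:11977754-12031316, minus strand) had 2 H3K4me1 intervals past the limits in intron 3, with a fold of 5.10 from 13937 to 17488 bp and a fold of 6.99 from 30394 to 33218 bp downstream of the TSS. The latter was the highest H3K4me1 fold at the 9 genes. H3K9Ac was listed inside both, at folds of 3.78 and 3.92, under its limit. DKK3 has 17 annotated start sites, and when any of them was allowed it gained H3K4me1 at a TSS but neither H3K4me3 nor H3K9Ac, and the nearest H3K4me3 lay 81.4 kb from the main one. CTCF was past the limits over exon 5 with a fold of 9.49. SFRP1, SFRP4, DKK1 and DKK3 thus made up the 4 genes with H3K4me1 past the limits in the window, against 72.0% of all genes.

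DKK2 (ENSG00000155011, chr4:107842959-108204963, minus strand) had the emptiest window. Over 382 kb it held no interval of any of the 5 histone marks, past the limits or not, and the nearest lay 167 kb (H3K4me1), 534 kb (H3K9Ac), 606 kb (H3K36me3), 683 kb (H3K4me3) and 1035 kb (H3K27me3) from the TSS. Of the 625 genes with a window at least as long, 10.7% held none. Its 6 CTCF intervals lay upstream of the main TSS, within the longest annotated form of the gene, and 2 were past the limits, with folds of 7.03 (14727 to 14050 bp upstream) and 11.0 (147398 to 146622 bp upstream). SOX17, whose product belongs to the SOX F subgroup, was the one gene without a CTCF interval in its window, the nearest lying 20.1 kb from the TSS, and its H3K4me1 interval with a fold of 3.22 upstream did not reach the limits.

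Counted over whole windows, H3K4me3, H3K9Ac and H3K36me3 were listed at a smaller share of the 9 genes than of all genes. H3K4me1 was also below the share of all genes, by less than those marks when listed, and further below it when past the limits. CTCF was not below it. Intervals of any strength were listed for H3K4me3 at 2 genes (SFRP4 and DKK1), against 72.9% of all genes, and past the limits at the same 2, against 69.1%. For H3K9Ac the count was 4 against 79.1%, and past the limits 2 against 68.3%. H3K4me1 was listed at 6 genes, against 81.3%, and past the limits at 4, against 72.0%. H3K36me3 was listed at 3, namely SFRP5, DKK1 and DKK3, against 65.9%, and at SFRP5 and DKK3 it overlapped the neighbouring genes ZFYVE27 and USP47. CTCF was listed at 8 of the 9 genes, against 79.0%, and past the limits at the same 8, against 62.4%. Windows differ in length between genes, from 23.0 kb for SOX17 to 382 kb for DKK2, and longer windows have more room for an interval.

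Some of the CTCF intervals held a core CTCF motif, and the highest ones at DKK1 and WIF1 did not. The letters CCANNAGNNGGC, where N is any base, were searched on both strands. They were found in 6 of the 22 CTCF intervals at the 9 genes, against 26.7% of all listed CTCF intervals and 35.0% of those past the limits, so the share was near the background. The matches within intervals past the limits are given with 9 bases on each side, 5′ to 3′ on the strand of the motif, with the match in capitals. They stand at chr7:37941021-37941050 for SFRP4, chr10:99519348-99519377 for SFRP5, chr12:65500934-65500963 (minus strand) for WIF1 and chr10:54068110-54068139 for DKK1.
SFRP4: cgtatttcaCCAGCAGATGGCaagctacac
SFRP5: aggcagtagCCACCAGAGGGCagcagcgaa
WIF1: tagcagtaaCCAGCAGATGGCaatgtaaaa
DKK1: acggaaattCCACCAGGAGGCagcagaaga
The match at DKK1 lay 5917 bp upstream of the TSS, in the interval with a fold of 10.3. The interval over the DKK1 TSS (fold 18.4) and the one upstream of WIF1 (fold 15.9) held no match to these letters, and neither did the promoter interval of SFRP4 (fold 7.50). The other matches were in DKK2, in intervals with folds of 4.62 and 4.70 that did not reach the limits.

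The remaining genes of the Wnt pathway were read by the same rule, from 6 lists that hold 75 genes. Among the other secreted antagonists and the Dickkopf receptors, H3K4me3 was past the limits at the TSS of 4 of 9, DKKL1, NOTUM, KREMEN1 and KREMEN2, with folds from 13.8 (DKKL1) to 27 (KREMEN2, a co-receptor for Dickkopf proteins). FRZB, DKK4, CER1, SOST and SOSTDC1 had none, like 8 of the 9 genes here. Of these 9 other antagonists and receptors, 3 had a CpG-rich promoter and all 3 were marked by H3K4me3, whereas FRZB, DKK4, CER1, SOST and SOSTDC1 were not CpG-rich. The SFRPs, WIF1, DKK3 and SOX17 were thus CpG-rich without the mark, a combination that no gene of the other antagonist list had. With the mark at 84.5% of all CpG-rich promoters, 3 of 3 is near that share, so no contrast can be read from these 3 genes.

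H3K4me3 was past the limits at 9 of 19 Wnt ligands, with a highest fold of 17.6 at WNT9A and WNT16. It was past the limits at 12 of 15 receptors, led by ROR2 (33.3), at 15 of 17 intracellular components, led by PYGO2 (31.7), which binds the β-catenin complex, and at 11 of 13 target and feedback genes, led by AXIN2 (32.9). In the SOX F subgroup outside SOX17, SOX18 was marked (10.3) and SOX7 was not. The fold of 12.0 at DKK1 was above the median of marked ligands (10.8) and below those of marked receptors (22.9), intracellular components (22.6) and target genes (19.4). Of CpG-rich promoters, the mark was at 6 of 13 ligands, 12 of 15 receptors, 13 of 14 intracellular components and 9 of 10 target genes. The ligands thus came nearest to the 1 of 8 of the genes followed here.

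H3K27me3 was past the limits at the TSS of 7 of the 75 pathway genes, where 1.22% of all genes had it, a background at which the count of 0 of the 9 genes followed here cannot be read. The 7 were NOTUM (fold 5.75), which encodes a secreted enzyme that inactivates Wnt, the ligands WNT6 (3.90) and WNT7A (5.05), the receptors FZD3 (4.33) and FZD8 (4.55), and the target genes LGR5 (4.58) and TNFRSF19 (4.04). The SFRP1 and SOX17 folds of 4.13 and 4.01 were in the same range but lay away from the TSS.

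**Figure D5:**
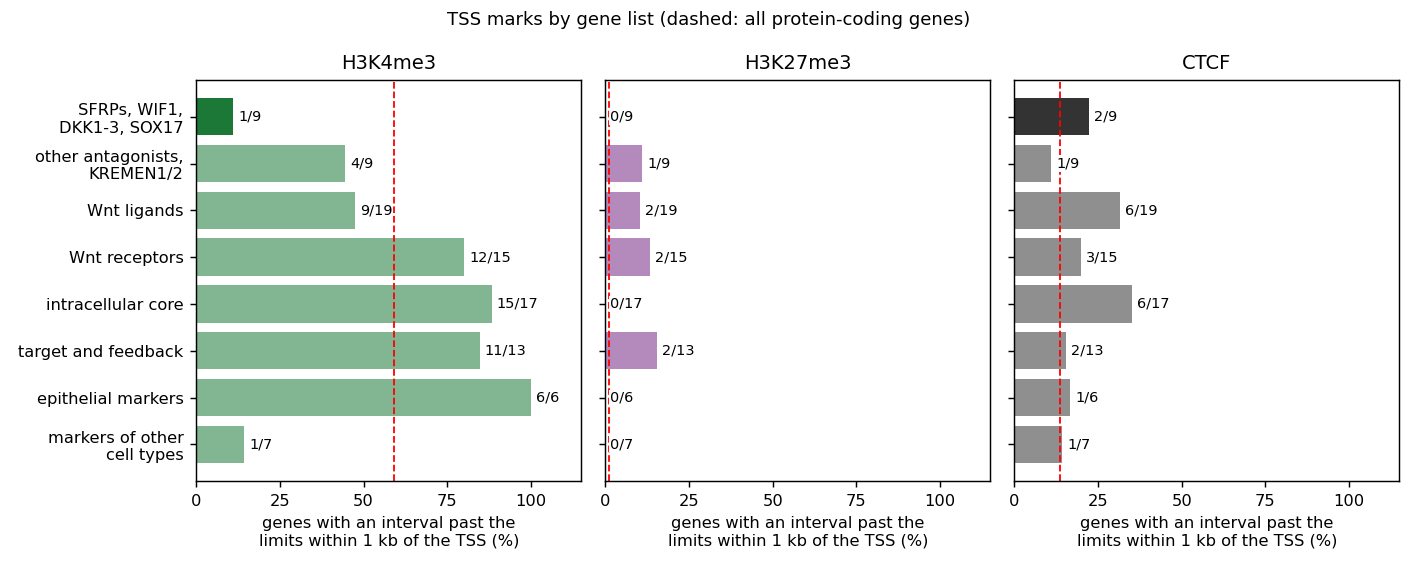
Share of genes (horizontal axis, percent) in each list (vertical axis) with an H3K4me3, H3K27me3 or CTCF interval past the limits within 1 kb of the TSS, with the counts beside the bars; the dashed line is the share over all protein-coding genes. The 9 genes, in the top row, stand at 1 of 9 for H3K4me3, 0 of 9 for H3K27me3 and 2 of 9 for CTCF, while 4 of 9 other antagonists and receptors had H3K4me3.

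Likeness to other genes was read from the set of marks past the limits over the gene body and 10 kb around it. SFRP2, SFRP5, WIF1 and DKK2 shared one pattern, CTCF alone, with 1270 or 6.30% of coding genes, and of the 75 pathway genes with FRZB, DKK4, SOST, WNT8A and WNT8B. SFRP4 and DKK1 had H3K4me3, H3K9Ac, H3K4me1 and CTCF, the pattern of 42.1% of coding genes and of 43 of the 75 pathway genes. For SFRP4, the H3K4me3 and H3K9Ac intervals past the limits were those over the TSS of EPDR1. SFRP1, with H3K4me1, H3K27me3 and CTCF, shared its pattern with 160 coding genes and with FZD8. DKK3, with H3K4me1 and CTCF, shared it with 1133 coding genes, among them WNT3A, WNT9B and LEF1. SOX17, with H3K27me3 alone, shared it with 129 coding genes and with none of the pathway genes.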

How the data were processed

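PIXUL-ChIP-seq lists for 6 antibodies from HCT116 cells were used, with 1 library of 1 well each. A 7th library (H3K27Ac) was not analysed here. Per the labels, reads carried molecular identifiers for removal of PCR duplicates. They were aligned to hg19 with BWA 0.7.12, and MACS2 called broad intervals with its broad cutoff set to 0.1. The submitters' processing notes also name MACS 1.4.2, SAMtools 0.1.19 and bcl2fastq 2.20.0.442, and the lists have the column layout of MACS2. The labels do not say which libraries had single and which paired reads. The deposited lists give for each interval a linear fold enrichment (a ratio to background), the −log10 of its p-value and of its q-value, and a score derived from the q-value. Fold and q were used here, and the values are comparable within a list but not between antibodies.

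Genes were taken from GENCODE release 44 lifted to hg19, and sequence from the GRCh37 genome, which is the build of the lists. Of 20176 protein-coding genes, 32 were left out because they are mitochondrial or lie in masked sequence. The TSS was that of the canonical transcript, and an overlap of 1 bp was enough to count. Overlap counts were checked against bedtools 2.31.1 and on simulated intervals. Intervals were read with Python 3.11.15 and sequence with pysam 0.24.0.

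The members, the gene lists and the limits on base composition were chosen with earlier results of these data known. All 9 members are named. From each pathway list, the text names the gene with the highest H3K4me3 fold at the TSS, genes with H3K27me3 past the limits there, and genes with the pattern of marks of a member, which for SFRP4 and DKK1 are given as a count. The unmarked and marked genes of the list of other antagonists were named after their values were seen. Of the 14 markers of cell types, PECAM1 was not found in the annotation used. Promoter sequences on chromosome 8 (SFRP1 and SOX17) are not shown. Counts are set beside the share over all protein-coding genes, and no test was run because there were no replicates. Depth is unknown from these lists, so no interval was computed for any count. Other limits, distances, start sites and minimum overlaps were tried as alternatives.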

Additional observations from a re-analysis of the deposited data

How the results depend on the processing

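Of 98 values recomputed under another setting, 76 stayed within 1.5 times the main value and 22 moved. With 5 kb on each side of the TSS, H3K4me3 and H3K9Ac were each at 2 genes, H3K27me3 at 1 and CTCF at 4. With all listed intervals in place of those past the limits, H3K9Ac was at 2 genes, H3K27me3 at 1 and CTCF at 4. Exchanging the limits between the marks left H3K4me1 at 0 genes, a fold limit multiplied by 1.5 left CTCF at 1, and an interval over at least 50% of the TSS window left H3K4me1 and CTCF at 1 each. H3K4me3 at the TSS of DKK1 alone held under every setting except the 5 kb distance, where the interval over EPDR1 added SFRP4. With 50 kb around the gene body, H3K4me3 was listed at 4 genes. Intervals past the limits only left H3K9Ac at 2 windows, H3K27me3 at 2 and H3K36me3 at 0, and lowered the covered length of the 9 windows from 68.3 to 6.78 kb for H3K27me3, from 21.2 to 0 kb for H3K36me3 and from 15.0 to 8.58 kb for CTCF. With all listed intervals, H3K27me3 lay at the TSS of 2 other antagonists and receptors, 6 ligands, 2 intracellular components and 4 target genes.

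No paired analysis was possible because each antibody had 1 library. Without replicates or read depth, an interval that was not called cannot be told from one that sequencing was too shallow to call.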
